A study of Homo sapiens with 12 samples.

Results

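The replication-dependent histone genes encode the proteins that package newly replicated DNA. Their transcripts were measured by RNA sequencing in OCI-Ly7 and TMD8, established cell lines from human diffuse large B-cell lymphoma. The members are all rows of the deposited tables whose name begins with HIST and a digit: 73 of the 25369 gene rows. They were grouped by the class in the name (H1, H2A, H2B, H3, H4) and by gene cluster (HIST1 to HIST4). A row was reported in a line when its mean over the 6 libraries of that line was at least 1 FPKM (fragments per kilobase of transcript, scaled to the mapped fragments of the library, so a level per length). That held for 55 rows in OCI-Ly7 and 59 in TMD8, for 54 in both and for 60 in at least 1 line.

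OCI-Ly7 is labelled a GCB (germinal centre B cell-like) and TMD8 an ABC (activated B cell-like) lymphoma line. All cells of both lines carried a guide RNA (sgRNA) against PRMT5 whose expression is switched on by doxycycline. PRMT5 is an arginine methyltransferase that methylates histones and splicing proteins. The groups were OCI-Ly7 at days 0, 3 and 6 and TMD8 at days 0, 3 and 6 of 20 ng/ml doxycycline, with 2 libraries each and 12 in all. A treatment note in the labels names other days, but titles, characteristics and design text all give 0, 3 and 6. No group without the guide was analysed here, so doxycycline itself and time in culture cannot be told apart from the induced guide. The labels do not say whether libraries of a day came from separate cultures, or whether cells were a single clone, so p-values measure only the spread between these samples.

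The genes of this family are switched on as cells enter S phase, through NPAT and gene-specific promoter factors. Their mRNAs are unusual among those of animal cells: most end in a short stem-loop bound by SLBP and carry no poly(A) tail. The H2A, H2B, H3 and H4 proteins form the core around which DNA winds, and H1 binds the DNA between cores. Some of these genes, HIST1H1C, HIST1H2BK, HIST1H2BD, HIST1H2AC and HIST2H2BE among them, are known to make polyadenylated mRNAs too. The labels name the Illumina TruSeq RNA kit; they do not say whether polyadenylated RNA was selected.

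The stem-loop is the feature that sets these mRNAs apart, and 5 spellings of it occurred in the annotated transcripts. Searched on the transcript strand as GG, any 2 bases, CTTTT, any base, AG, any 2 bases and CC, it was found for 26 of the 60 reported genes, against 52 of 19669 protein-coding genes of the GENCODE annotation (0.264%). The 52 include histone genes. For them only protein-coding transcripts were searched, and for the reported genes all annotated transcripts. Many annotated histone transcripts stop at the coding part, so a missing match says only that the annotated letters lack it. An example of each spelling follows, with the stem-loop in capitals.
HIST1H2AE: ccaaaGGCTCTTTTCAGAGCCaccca
HIST1H2BC: ccaaaGGCTCTTTTAAGAGCCaccca
HIST1H2AG: ccaacGGCTCTTTTCAGGGCCaccca
HIST1H4B: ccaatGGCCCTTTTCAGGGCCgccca
HIST1H4I: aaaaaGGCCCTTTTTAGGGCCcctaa
The spelling of HIST1H2AE was the most frequent, with 13 of the 26, and that of HIST1H4B followed with 5. The spelling of HIST1H2BC was held by 4 genes, and those of HIST1H2AG and HIST1H4I by 2 each.

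Promoters are shown for the 3 members at the extremes of the results: HIST1H1C and HIST1H2BK, the rows with the highest levels, and HIST1H4D, the row with the largest change. Each window is from RefSeq (GRCh38.p14) and runs from 250 bases before to 50 bases after the gene start, on the gene's strand. Capitals mark CCAAT, the TATA motif TATAAA, the octamer ATTTGCAT bound by Oct factors, and the H1 box AAACACA, on either strand.
HIST1H1C, chr6:26056421-26056720, minus strand: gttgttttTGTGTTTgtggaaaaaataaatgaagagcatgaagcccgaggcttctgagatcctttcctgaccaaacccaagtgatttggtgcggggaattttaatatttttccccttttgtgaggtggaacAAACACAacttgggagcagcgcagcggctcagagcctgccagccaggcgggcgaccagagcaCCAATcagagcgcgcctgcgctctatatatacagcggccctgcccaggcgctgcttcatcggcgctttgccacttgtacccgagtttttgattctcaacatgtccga
HIST1H2BK, chr6:27146809-27147108, minus strand: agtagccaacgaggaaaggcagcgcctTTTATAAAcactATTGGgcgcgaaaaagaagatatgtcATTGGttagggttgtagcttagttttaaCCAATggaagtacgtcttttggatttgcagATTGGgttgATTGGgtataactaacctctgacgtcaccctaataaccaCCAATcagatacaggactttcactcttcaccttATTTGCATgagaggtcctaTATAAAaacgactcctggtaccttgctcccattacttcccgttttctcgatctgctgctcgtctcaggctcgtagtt
HIST1H4D, chr6:26189063-26189362, minus strand: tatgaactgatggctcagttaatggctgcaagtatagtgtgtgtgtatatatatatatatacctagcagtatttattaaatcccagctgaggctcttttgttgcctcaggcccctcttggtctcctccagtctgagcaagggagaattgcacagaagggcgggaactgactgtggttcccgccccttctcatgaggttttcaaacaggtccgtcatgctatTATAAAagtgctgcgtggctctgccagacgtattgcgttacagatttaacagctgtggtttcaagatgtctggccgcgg
The HIST1H2BK window holds the octamer, several CCAAT motifs and TATA motifs at both ends. The HIST1H4D window holds a TATA motif and no other of these motifs, and the HIST1H1C window holds CCAAT and the H1 box.

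Across the 54 reported genes with a promoter in the table, CCAAT, the octamer and the H1 box differed by histone class. CCAAT stood in 46 of the 54 (85.2%), against 35.7% of all 27305 promoters of the same length. It was in every H1, H2A, H2B and H3 promoter matched, but in 3 of 11 of the H4 genes. The octamer stood in 10 of 13 H2A and 13 of 16 H2B promoters, in 1 of 10 H3 promoters and in no H1 or H4 promoter, against 1.8% of all promoters. TATAAA stood in 66.7% of the histone promoters, from 50% for H1 to 76.9% for H2A by class, against 12% of all. The H1 box stood in all 4 H1 promoters, in 1 of 13 H2A, 1 of 10 H3 and no H2B or H4 promoters, against 5.76% of all. These matches are descriptions of letters, and paired genes that are read in opposite directions can share a window.

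Before the histone levels, the libraries and the targeted gene were checked. The sum of FPKM per library was 397477 to 467844, and the absolute depth is not given in the sources used here. PRMT5 stood at 37.9 and 46.9 FPKM at day 0, 29.3 and 32.1 FPKM at day 3 and 21 and 19.2 FPKM at day 6 in OCI-Ly7, and at 64.8 and 60.5, then 41.3 and 42.0, then 49.6 and 54.7 in TMD8. Its day 6 change was -1.04 in OCI-Ly7 (SE 0.13, limma adjusted p = 0.0345) and -0.26 in TMD8 (SE 0.07, limma adjusted p = 0.0262) on the log2 scale. With median-ratio scaling of the libraries the TMD8 value was 0.10 (limma adjusted p = 0.201), so the direction in TMD8 rests on the scaling. The B cell markers MS4A1, CD79A, CD79B and PAX5 averaged at least 1 FPKM in both lines. No T, NK or myeloid marker reached that level in either line. COL1A1 and EPCAM, from a list of 6 stromal and epithelial markers, did in OCI-Ly7, where the summed level of the list lay between 9.72 and 11.3 FPKM.

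The histone rows stood at moderate levels in both lines, with a pair of rows far above the rest. The median of the reported rows' means was 20.5 FPKM in OCI-Ly7 and 11.2 FPKM in TMD8. These levels were set side by side without a test, since each line was deposited in a table of its own. The H4 rows had a median of 31.2 FPKM in OCI-Ly7 and 20.7 FPKM in TMD8, and the H3 rows 8.26 FPKM and 9.13 FPKM. The HIST1 cluster on chromosome 6 supplied 45 of the 55 rows in OCI-Ly7 and 49 of the 59 in TMD8. HIST2 gave 9 rows in each line and HIST4 its only row, HIST4H4, while none of the 3 HIST3 rows was reported.

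HIST1H1C, a gene of the linker histone H1, was the highest row of the family in both lines. In OCI-Ly7 it stood at 1687 and 1732 FPKM at day 0, 1690 and 1575 FPKM at day 3 and 1737 and 1442 FPKM at day 6. In TMD8 it stood at 109 and 103 FPKM at day 0, 108 and 109 FPKM at day 3 and 139 and 146 FPKM at day 6. Every OCI-Ly7 library was above every TMD8 library, and in TMD8 the day 6 libraries were above all earlier ones.

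HIST1H2BK, an H2B gene whose promoter is shown above, came next. It stood at 532 and 497 FPKM at day 0, 503 and 457 FPKM at day 3 and 510 and 402 FPKM at day 6 in OCI-Ly7, and at 56.9 and 55.6, then 64.3 and 63.8, then 98.3 and 83.8 in TMD8. Again no library of one line reached into the range of the other. Below these, the highest OCI-Ly7 row of each core class was HIST2H2AA3 for H2A (mean 75.1 FPKM), HIST1H2BD for H2B (50.9), HIST1H3B for H3 (45.2) and HIST1H4C for H4 (92.2). In TMD8 they were HIST1H2AE (19.9), HIST1H2BH (17.7), HIST1H3C (19.3) and HIST1H4C (37.0).

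The rows next to the threshold of 1 FPKM are given as a description. In OCI-Ly7 the rows just outside it were HIST3H2BB (mean 0.686 FPKM) and HIST1H2BL (0.621), and the rows just inside were HIST1H3E (1.24) and HIST2H2BC (3.66). In TMD8 HIST1H3E (0.664) and HIST2H2BA (0.444) lay just outside, and HIST1H3A (1.98) and HIST2H2AB (2.23) just inside. In TMD8 HIST1H3A, HIST2H2AB and HIST2H3D averaged under 1 FPKM at day 0 and passed through the later days. The filter therefore favours a rise in them. They were kept among the rows tested in TMD8 and for the difference between the lines. HIST2H2BC, a transcribed pseudogene in RefSeq, was among the reported rows.

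Along the HIST1 cluster OCI-Ly7 had a stretch of rows near 0 that were present in TMD8. HIST1H2BL, HIST1H2AI, HIST1H3H, HIST1H2AJ and HIST1H2BM, neighbours in the RefSeq gene order, averaged 0.621, 0, 0, 0.0354 and 0.1 FPKM in OCI-Ly7. HIST1H2AI and HIST1H3H were listed at 0 in all 6 OCI-Ly7 libraries. In TMD8 the same rows averaged 9.59, 16, 12.5, 15.3 and 10.2 FPKM.
The nearest histone rows on either side were present in both lines. HIST1H4J and HIST1H4K, the next histone genes on one side, averaged 31.2 and 38.6 FPKM in OCI-Ly7 and 28.6 and 34.3 FPKM in TMD8. Most of their annotated sequence is shared, as given below, so their values do not show which of the pair was present. HIST1H2AH, the nearest histone gene on the other side, averaged 38.6 FPKM in OCI-Ly7 and 13.6 FPKM in TMD8. Among the non-histone rows between HIST1H2AH and the stretch, ZNF184 averaged 8.66 FPKM in OCI-Ly7 and 4.38 FPKM in TMD8. LOC100131289 averaged 7.8 FPKM and 0.318 FPKM, MIR3143 1.02 FPKM and 0 FPKM, and ZNF391 0.21 FPKM and 0 FPKM. PRSS16 (0.0492 FPKM and 1.13 FPKM) and LINC01012 (0.00584 FPKM and 0.121 FPKM) were lower in OCI-Ly7. POM121L2, VN1R10P and ZNF204P were listed at 0 in every library of both lines. The 5 histone rows of the stretch were the ones reported in TMD8 alone; HIST1H3E was the 1 row reported in OCI-Ly7 alone. Levels between the lines were not tested, and the cause of the stretch was not tested.

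**Figure D1:**
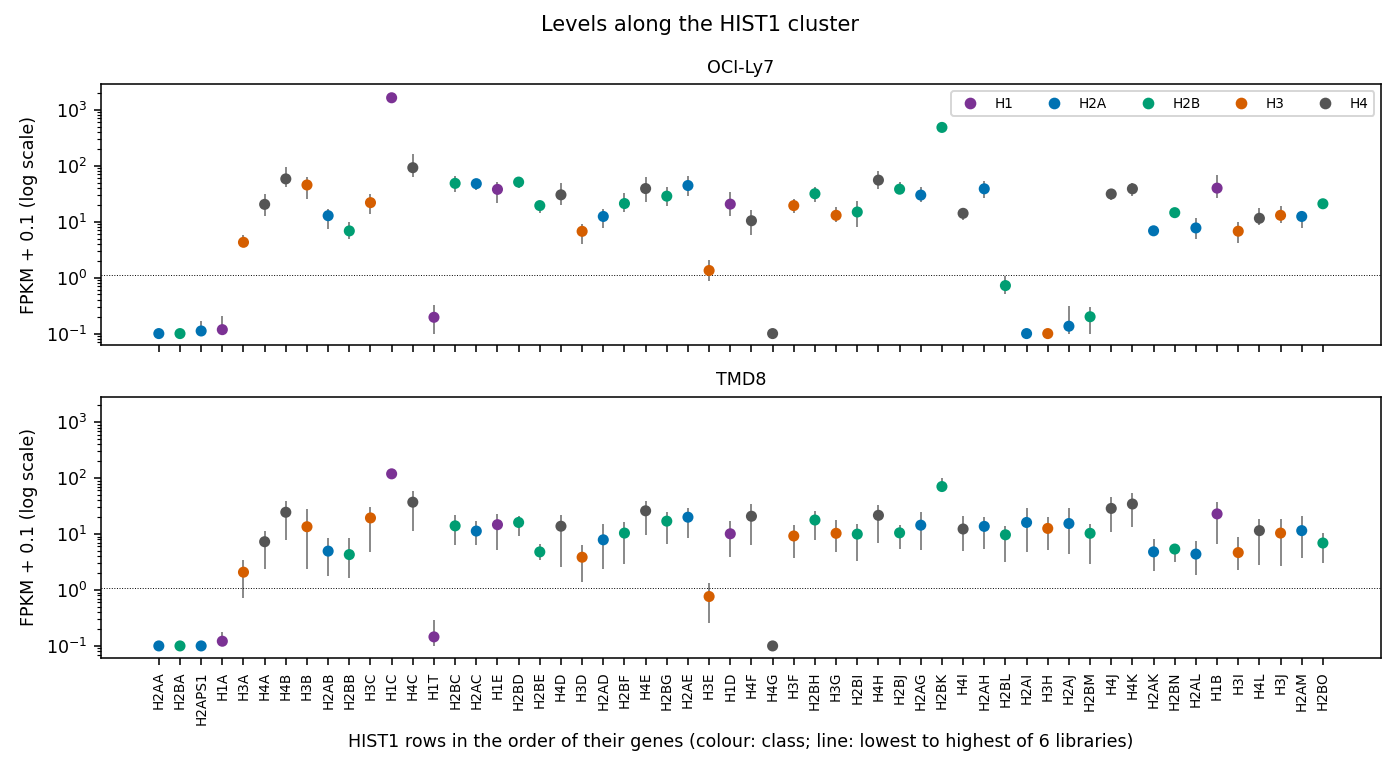
Mean FPKM of each HIST1 row in OCI-Ly7 (upper panel) and TMD8 (lower panel), in gene order along the cluster, as FPKM + 0.1 on a log axis; colour gives the class, vertical lines the lowest to highest of the 6 libraries and the dotted line the mean of 1 FPKM. The 5 neighbouring rows between HIST1H2AH and HIST1H4J lie near 0 in OCI-Ly7 and between 9.59 and 16 FPKM in TMD8.

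Some rows cannot be told from a near-identical copy. Each of the duplicated HIST2 genes had a row with nearly all of the level and a partner near 0: HIST2H2AA3 averaged 75.1 FPKM in OCI-Ly7 and 17.5 FPKM in TMD8, while HIST2H2AA4 averaged 0.165 FPKM and 0.0145 FPKM. HIST2H3C with HIST2H3A, and HIST2H4A with HIST2H4B, were split in the same manner. Of words of 50 bases in the annotated transcripts, 97.1% to 100% were shared within these pairs, so their values are best read as the pair's. HIST1H4J and HIST1H4K share 81.2% and 100% of theirs, and HIST1H2AI and HIST1H2AJ share 62.3% and 83.7%. HIST1H2AM shares 86.3% of its words with HIST1H3J, and HIST1H3J shares 40.9% of its words with HIST1H2AM. Of the 60 reported genes, 12 shared at least 20% of their words with another histone gene and 27 shared none.

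The first comparison asked how the family changed as the PRMT5 guide was induced, line by line. In OCI-Ly7 no row passed the test at day 3 and 3 of 55 did at day 6, with higher sums at day 3; in TMD8 the family rose at nearly every row, in all classes. The summed FPKM of the 73 rows in OCI-Ly7 was 3409 and 3266 at day 0, 3507 and 3832 FPKM at day 3 and 3455 and 3377 FPKM at day 6. In TMD8 it was 428 and 521 at day 0, 1219 and 828 FPKM at day 3 and 1263 and 1095 FPKM at day 6. In OCI-Ly7 both day 3 sums were above both day 0 sums, and the sums overlapped between days 6 and 0, while every later TMD8 library was above both day 0 libraries. In bulk RNA, more cells in S phase and more histone mRNA per cell cannot be told apart.

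The ratio of the mean sums hides how far the many smaller rows moved, because HIST1H1C and HIST1H2BK weigh so much. The day 6 sum was 1.02 times the day 0 sum in OCI-Ly7 and 2.49 times in TMD8. Without HIST1H1C and HIST1H2BK these ratios were 1.23 and 3.03. Class by class, day 6 over day 0 in TMD8 was 3.94 for H1 without HIST1H1C, 2.65 for H2A, 2.49 for H2B without HIST1H2BK, 3.30 for H3 and 3.42 for H4. In OCI-Ly7 the same day 6 ratios were 1.39, 1.25, 1.14, 1.47 and 1.19. Day 3 over day 0 in OCI-Ly7 gave higher ratios for most classes: 1.77 for H1 without HIST1H1C, 1.23 for H2A, 1.32 for H2B without HIST1H2BK, 1.48 for H3 and 1.49 for H4. For all rows without HIST1H1C and HIST1H2BK the day 3 ratio was 1.40 in OCI-Ly7 and 2.73 in TMD8.

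**Figure D2:**
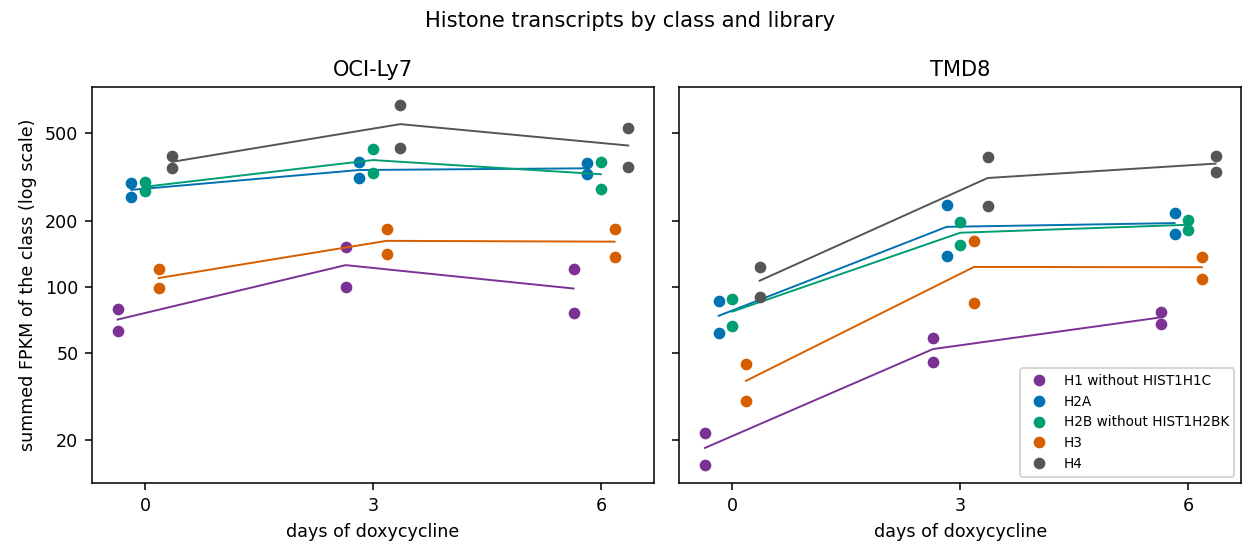
Summed FPKM of each histone class (log axis) against days of doxycycline in OCI-Ly7 (left) and TMD8 (right); each point is a library and lines join the means of the 2 libraries of a day. HIST1H1C and HIST1H2BK are left out of their classes. All classes are higher in both later days than at day 0 in every TMD8 library, with the H4 sums at 395 and 333 at day 6, against 89.5 and 123 at day 0.

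In TMD8, 57 of the 59 histone rows rose at day 6 against day 0 and none fell (limma on log2(FPKM + 1), Benjamini-Hochberg adjusted p under 0.05). Of all 10456 genes tested in TMD8, 3.89% were called higher. The median log2 change of the histone rows was 1.34, against -0.31 over all genes tested, and 44 rows rose at least 2-fold on that scale. In 58 rows both day 6 libraries were above both day 0 libraries, which held upward for 7.88% of all genes. The count was 58 after median-ratio scaling, under which 15.4% of all genes were called higher. It was 37 without the first day 0 library, with a median change of 1.14.

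All 13 H4 rows rose, with a median log2 change of 1.60; H4 is among the most conserved proteins known. HIST1H4D stood at 2.49 and 3.72 FPKM at day 0, 20.6 and 11.7 FPKM at day 3 and 21.8 and 21.6 FPKM at day 6 in TMD8. The day 6 libraries were close to each other and far above day 0; the change was 2.49 on the log2 scale (SE 0.26, limma adjusted p = 0.00209), the largest of the family. HIST1H4C stood at 11 and 15.3 FPKM at day 0, 56.3 and 26.7 FPKM at day 3 and 58.6 and 54.1 FPKM at day 6. Its day 3 libraries were well apart from each other, yet both lay above day 0, and it rose by 2.04 at day 6 (SE 0.33, limma adjusted p = 0.00515). HIST1H4F rose by 1.93, HIST1H4B by 1.74, and HIST4H4, the lone HIST4 gene, by 0.84.

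All 4 reported H1 rows rose in TMD8 at day 6, by very different amounts. HIST1H1B stood at 6.40 and 9.53 FPKM at day 0, 27.5 and 19.6 FPKM at day 3 and 37.1 and 36.7 FPKM at day 6. It rose by 2.10 on the log2 scale (SE 0.21, limma adjusted p = 0.00196), and its levels at the 3 days did not overlap. HIST1H1D stood at 3.81 and 4.45 FPKM at day 0, 10.1 and 9.61 FPKM at day 3 and 16.8 and 15.5 FPKM at day 6, and rose by 1.74. HIST1H1E rose by 1.47. HIST1H1C, at the values given above, rose by 0.43 (SE 0.06, limma adjusted p = 0.00358), among the smallest changes of the family.

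All 14 H2A rows rose in TMD8, with a median log2 change of 1.31 and a range of 0.88 to 1.60. HIST1H2AE, the highest H2A row there, stood at 8.30 and 9.61 FPKM at day 0, 26.8 and 17.0 FPKM at day 3 and 29.5 and 28.3 FPKM at day 6, and rose by 1.59 (SE 0.20, limma adjusted p = 0.00286). HIST1H2AI and HIST1H2AJ, from the stretch that is near 0 in OCI-Ly7, rose by 1.60 and 1.39. Most of their annotated sequence is shared, so these changes cannot be read as separate. HIST1H2AC, also known in polyadenylated form, rose by 0.95.

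Of the 17 H2B rows 16 rose, with the lowest class median, 1.15. HIST1H2BB stood at 1.51 and 1.88 FPKM at day 0, 4.34 and 3.05 FPKM at day 3 and 8.22 and 6.13 FPKM at day 6, and rose by 1.59 (SE 0.18, limma adjusted p = 0.00252). At the low end were HIST2H2BE with 0.39, HIST1H2BN with 0.61, HIST1H2BE with 0.66, HIST1H2BK with 0.68 and HIST1H2BD with 0.76. The pseudogene row HIST2H2BC stood at 3.06 and 2.94 FPKM at day 6, against 3.04 and 2.46 FPKM at day 0, with overlapping groups and a change of 0.10 (limma adjusted p = 0.46).

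Of the 11 H3 rows 10 rose, with a median log2 change of 1.33. HIST1H3C, the highest H3 row in TMD8, stood at 4.71 and 8.41 FPKM at day 0, 29.8 and 22.1 FPKM at day 3 and 25.8 and 25.0 FPKM at day 6, and rose by 1.85 (SE 0.25, limma adjusted p = 0.00325). HIST1H3J rose by 1.88 and HIST1H3B by 1.87. Part of the annotated HIST1H3J sequence is shared with HIST1H2AM, so that change cannot be read as HIST1H3J alone. HIST1H3I was the row that missed the threshold, at 5.60 and 3.69 FPKM at day 6, against 2.20 and 3.17 FPKM at day 0, with a change of 0.61 (SE 0.33, limma adjusted p = 0.162).

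**Figure D3:**
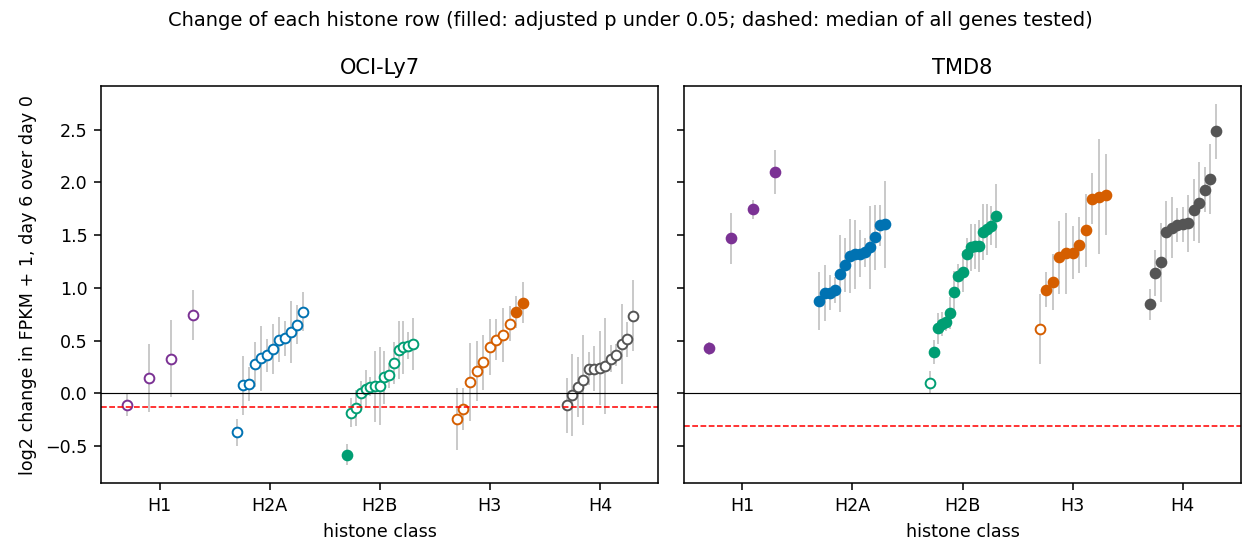
Log2 change in FPKM + 1, day 6 over day 0, of each reported histone row by class in OCI-Ly7 (left) and TMD8 (right), sorted within the class; bars are standard errors of the limma fit, filled points have an adjusted p under 0.05 and the dashed line is the median of all genes tested. In TMD8 57 of 59 points are filled, from 0.39 to 2.49; in OCI-Ly7 3 of 55 are.

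At day 3 in TMD8 51 of 59 histone rows rose and none fell, against 1.5% of all genes called higher, with a median of 1.26 for the histone rows and -0.27 for all genes tested. In 57 rows both day 3 libraries were above both day 0 libraries, against 3.41% of all genes; HIST1H1C and HIST2H2BC were the exceptions. HIST1H4D rose by 2.03, HIST1H3B by 1.87, HIST1H3C by 1.87 and HIST1H4F by 1.63. HIST2H3D rose by 1.83, but it averaged 0.836 FPKM at day 0 and passed the filter only through the later days. The rows that missed the threshold were HIST1H1C, HIST1H2AC, HIST1H2AK, HIST1H2BE, HIST1H2BK, HIST1H3G, HIST1H3I and HIST2H2BC.
The day 3 calls depended on the libraries and on their scaling far more than the day 6 calls. The first day 3 library was above the second for most rows, as with HIST1H3B at 27.6 and 10.1 FPKM. The count was 2 after median-ratio scaling, when 58 rows had an unadjusted p under 0.05, and 0.143% of all genes were called higher. It was 0 without the first day 0 library and 0 without the first day 3 library, 7 without the second day 0 library and 12 without the second day 3 library; the median change stayed between 0.94 and 1.5 in these fits.

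From day 3 to day 6 few TMD8 rows moved further. HIST1H1C, HIST1H1D and HIST1H2BK were higher at day 6 than at day 3, by 0.39, 0.66 and 0.50 on the log2 scale (limma adjusted p = 0.0238, 0.0219 and 0.0303). These were 3 of 59 rows, against 3.38% of all genes called higher in that comparison. HIST1H1C and HIST1H2BK had not passed at day 3 against day 0. No row was called without either day 3 library or without the first day 6 library, and 1 was called without either day 0 library.

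In OCI-Ly7 no histone row passed at day 3 (limma), 13 of 55 having an unadjusted p under 0.05, all of them higher; 0.0726% of all 11016 genes tested were called higher. The median log2 change of the histone rows was 0.48, against -0.12 over all genes tested. In 31 rows both day 3 libraries were above both day 0 libraries, against 4.58% of all genes. HIST1H1D had the largest change, 0.87, at 21.7 and 33.7 FPKM at day 3, against 16.3 and 12.7 FPKM at day 0.

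At day 6 in OCI-Ly7 2 rows rose and 1 fell, against 1.98% of all genes called higher and 9.39% called lower. HIST1H3B, the highest H3 row there, stood at 33.3 and 25.6 FPKM at day 0, 47.7 and 55.5 FPKM at day 3 and 46.4 and 62.5 FPKM at day 6, and rose by 0.86 (SE 0.20, limma adjusted p = 0.0486). HIST1H3D stood at 5.0 and 3.85 FPKM at day 0, 6.61 and 7.76 FPKM at day 3 and 7.55 and 8.91 FPKM at day 6, and rose by 0.77 (SE 0.15, limma adjusted p = 0.0402). For both rows, every later library was above both day 0 libraries.
HIST1H2BE, an H2B gene, stood at 21.6 and 23.4 FPKM at day 0, 19.9 and 21.4 FPKM at day 3 and 15.2 and 14.2 FPKM at day 6. It fell by 0.58 on the log2 scale at day 6 (SE 0.10, limma adjusted p = 0.0351), with both day 6 libraries below all others. After median-ratio scaling HIST1H2BE no longer passed (-0.44, limma adjusted p = 0.0515) and 6 rows were called, all higher, against 6.71% of all genes called higher. No row was called without either day 0 library or without either day 6 library.
The median change of the family was 0.28, against -0.13 over all genes tested, and 27 rows had both day 6 libraries above both day 0 libraries, against 20.7% of all genes. In OCI-Ly7 the second library of days 3 and 6 was the higher one for many rows, as with HIST1H4C, at 74.4 and 164 FPKM at day 3 and 63.0 and 95.1 at day 6. No row passed from day 3 to day 6 (limma), with 4 rows at an unadjusted p under 0.05 and 0.218% of all genes called.

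The second comparison set the change in OCI-Ly7 against that in TMD8, gene by gene, as a difference of log2 changes. At day 6, 21 of 54 histone rows changed less in OCI-Ly7 than in TMD8 and none changed more, against 6.3% of all 9688 genes tested with a lower change. The median difference, OCI-Ly7 minus TMD8, was -1.02 for the histone rows and 0.16 over all genes tested. HIST1H4C differed by -2.05 (SE 0.58, limma adjusted p = 0.0336), with changes of -0.02 in OCI-Ly7 and 2.04 in TMD8. HIST1H4D differed by -2.01 (limma adjusted p = 0.0242), HIST1H1B by -1.96 (limma adjusted p = 0.0143) and HIST1H3C by -1.74 (limma adjusted p = 0.0347). HIST1H2BE had the smallest adjusted p (0.00169), with changes of -0.58 in OCI-Ly7 and 0.66 in TMD8. HIST1H1C and HIST1H2BK, with small changes but close libraries, differed by -0.54 and -0.86.

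The called rows came from each class: 3 of 4 H1, 4 of 12 H2A, 6 of 15 H2B, 2 of 10 H3 and 6 of 13 H4 rows. The count fell to 4 without the first TMD8 day 0 library, 6 without the first TMD8 day 6 library, 13 without the second TMD8 day 0 library, 7 and 8 without the first and the second OCI-Ly7 day 0 library, and 8 without the first OCI-Ly7 day 6 library. At day 3 no row passed for the difference (limma), with 17 rows at an unadjusted p under 0.05, all with the lower change in OCI-Ly7; 0.0619% of all genes were called with a lower change.

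Other RNAs that carry no poly(A) tail were also higher in the later TMD8 libraries. A list of such RNAs (small nuclear, small Cajal body and nucleolar RNAs, RNA components of enzymes, the ribosomal precursor) had 17 of its 32 members in the tables. At day 6 none of the 17 passed in OCI-Ly7, with a median log2 change of 0.11, and 12 rose in TMD8, with a median of 1.55, where 3.89% of all genes were called higher. At day 3 none passed in OCI-Ly7 (median 0.46) and 13 rose in TMD8 (median 1.67), where 1.5% of all genes were called higher. After median-ratio scaling 11 of the 17 were called higher in TMD8 at day 6, and none at day 3, where the median was 1.96. RMRP, the RNA of the enzyme RNase MRP, stood at 782 and 1098 FPKM at day 0, 4140 and 1958 FPKM at day 3 and 5785 and 4917 FPKM at day 6 in TMD8. RNA45S5, the ribosomal precursor, stood at 5222 and 7950 FPKM at day 0, 20066 and 20452 FPKM at day 3 and 20280 and 17581 FPKM at day 6.
In OCI-Ly7 RNA45S5 stood at 11163 and 10374 FPKM at day 0, 14278 and 20542 FPKM at day 3 and 16130 and 20185 FPKM at day 6. At each day of both lines, the library with the higher histone sum without HIST1H1C and HIST1H2BK also had the higher sum of the list without RNA45S5. Against the day 0 mean of 1, the sum of the list without RNA45S5 was 4.53 and 2.12 in the TMD8 day 3 libraries, and the histone sum without HIST1H1C and HIST1H2BK was 3.35 and 2.10. In the OCI-Ly7 day 3 libraries these values were 1.05 and 1.93 for the list and 1.18 and 1.62 for the histone rows. The part of RNAs without a poly(A) tail, and of how they were recovered, in the histone changes was not tested.

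**Figure D4:**
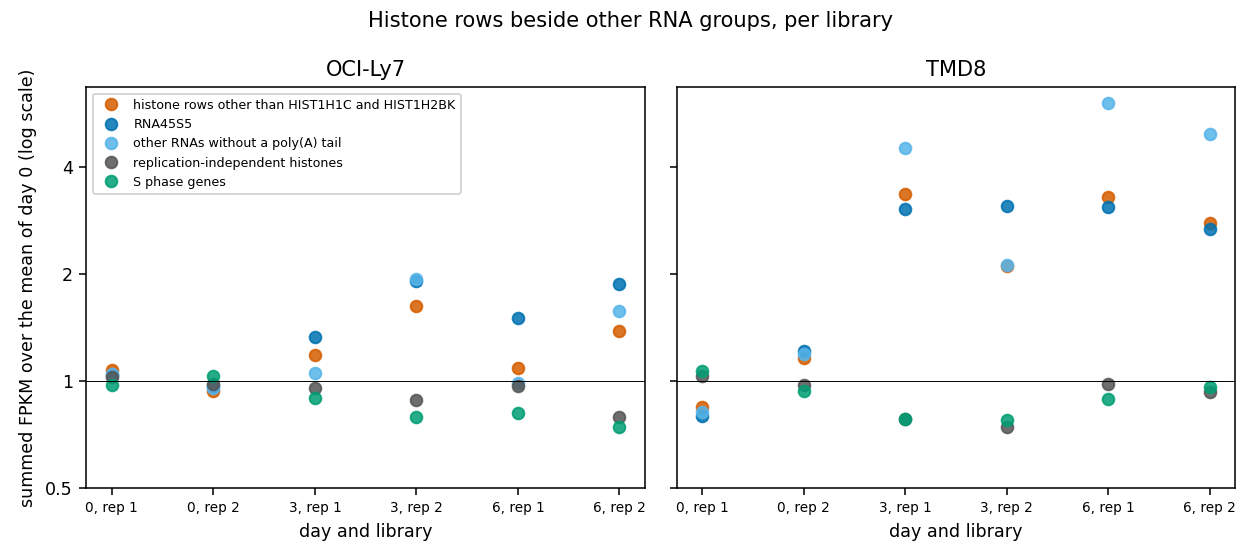
Summed FPKM of 5 groups of rows in each library over their mean at day 0 (log axis) in OCI-Ly7 (left) and TMD8 (right); each point is a library, by day and replicate. In TMD8 the histone rows, RNA45S5 and the other RNAs without a poly(A) tail are all at 2.10 or more in every later library, while the replication-independent histones and the S phase genes lie between 0.74 and 0.98.

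Replication-independent histone genes have mRNAs that are mostly polyadenylated and not tied to S phase. Without library scaling, none of these genes was called higher at day 6 in either line. At day 6 none of 11 tested rose and 1 fell in OCI-Ly7 (median log2 change -0.28), and none of 10 rose and 3 fell in TMD8 (median -0.13). Of all genes tested, 1.98% were called higher and 9.39% lower in OCI-Ly7, and 3.89% higher and 51.7% lower in TMD8. With so few rows tested, having none called higher does not set them apart from all genes. H2AFZ, which encodes the variant H2A.Z, stood at 604 and 559 FPKM at day 0, 430 and 405 FPKM at day 3 and 595 and 558 FPKM at day 6 in TMD8, with a change of -0.01 at day 6, and with 0.35 after median-ratio scaling, which passed the test. H3F3B, a gene of the replacement histone H3.3, had a change of -0.46 in OCI-Ly7 (limma adjusted p = 0.0543) and -0.18 in TMD8 (limma adjusted p = 0.054). The rows that fell were H2AFV in OCI-Ly7 (-0.41) and H1FX (-0.82), CENPA (-0.29) and H3F3C (-0.29) in TMD8. After median-ratio scaling 2 of the 10 in TMD8 were higher and none lower, where 15.4% of all genes were called higher.

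Of the factors that make and process histone mRNA, 1 was called higher at day 6, in TMD8. SLBP, the stem-loop binding protein, stood at 108 and 117 FPKM at day 0, 106 and 100 FPKM at day 3 and 97.4 and 82.5 FPKM at day 6 in OCI-Ly7, with a change of -0.32 (limma adjusted p = 0.115). In TMD8 it stood at 39.1 and 37.2, then 34.1 and 31.7, then 35.8 and 36.6, with a change of -0.07 (limma adjusted p = 0.384); after median-ratio scaling SLBP was called higher there, with 0.28. NPAT, the S phase coactivator of histone genes, changed by -0.04 in OCI-Ly7 (limma adjusted p = 0.829) and by -0.36 in TMD8 (limma adjusted p = 0.0597).
Of the list of histone mRNA transcription and processing factors, none rose and 4 of 31 fell in OCI-Ly7 at day 6. There, 1.98% of all genes were called higher and 9.39% lower. In TMD8 1 of 32 rose and 13 fell, where 3.89% of all genes were called higher and 51.7% lower. The 1 that rose was CCNE2, a cyclin that activates the kinase acting on NPAT, with 0.38. ZCCHC6 (-0.81) and ZCCHC11 (-0.74), enzymes implicated in adding uridines to histone mRNA for its decay, fell most in TMD8, followed by the scaffold of the cleavage complex, SYMPK (-0.73), and the octamer-binding factor POU2F1 (-0.65). After median-ratio scaling 6 of this list were higher and 4 lower in TMD8, where 15.4% of all genes were then called higher and 13.5% lower. ZCCHC6 (-0.50), ZCCHC11 (-0.40), SYMPK (-0.37) and POU2F1 (-0.39) were the 4 that were lower on that scale.

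Histone chaperones and their partners, which bring histones to DNA, and S phase genes were counted in the same way. Of 23 chaperones none rose and 3 fell in OCI-Ly7, IPO4 (-0.89), HAT1 (-0.87) and RBBP7 (-0.48), where 9.39% of all genes were called lower. In TMD8 none of the 23 rose and 10 fell, RBBP7 most, with -1.01, where 51.7% of all genes were called lower. After median-ratio scaling 5 chaperones were higher and 2 lower in TMD8, against 15.4% and 13.5% of all genes, with RBBP7 at -0.66. Of 36 S phase genes none rose and 9 fell in OCI-Ly7 (median -0.38), with RRM2, a ribonucleotide reductase subunit, at -0.77. Of all genes tested in OCI-Ly7, 1.98% were called higher and 9.39% lower.
In TMD8 2 of the 36 S phase genes rose, PCNA (0.37) and CCNE2 (0.38), and 16 fell, POLD1, a DNA polymerase subunit, most, with -1.18. Of all genes, 3.89% were called higher and 51.7% lower there. After median-ratio scaling 14 were higher and 3 lower in TMD8, with a median of 0.18, against 15.4% and 13.5% of all genes. The S phase genes' median was therefore far below the histone rows' 1.34 and 1.66 in TMD8 on either scale, while its sign differed between them.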

How the data were processed

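RNA sequencing of 12 libraries was analysed from the FPKM values deposited by the authors, with 1 table per line; per the submitters' processing notes HISAT, StringTie and hg19 were used, whose versions the sources used here do not give. Absolute depth is unknown, so no counting interval is given; relative depth, read from the steps between low values, was 0.54 to 1.17 in TMD8 and 0.774 to 1.29 in OCI-Ly7 with the first day 0 library at 1. The annotation and sequences used are on GRCh38, another build.

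The members and gene lists were chosen with earlier results of these data known. Log2(FPKM + 1) was fitted with limma 3.58.1 (R 4.3.3, mean-dependent trend) per line for rows with a mean FPKM of at least 1, with days sharing 1 estimate of spread. P-values were adjusted by Benjamini-Hochberg over all rows tested (10456 in TMD8, 11016 in OCI-Ly7), with a threshold of 0.05. The difference between lines was fitted over the 12 libraries (9688 rows). FPKM adds to a near-fixed total, so a row that takes more reads lowers the others. Alternatives were a pseudocount of 0.1, no filter, median-ratio scaling, an equal sum without 2146 ribosomal, small RNA and histone rows, a replicate block and leaving out each library. Class sums were not tested. Rows were named by rule: the 3 highest per class and line, the 5 largest called changes in each direction per line for each later day against day 0, rows called for the difference between lines, up to 4 with the largest change per list, and PRMT5, SLBP and NPAT; HIST1H2AJ, HIST1H2BC, HIST1H2BL, HIST1H2BM, HIST1H4I and others given as low, missed or boundary rows were chosen after their values were seen. Not every row named by the rule is printed. The fit was tested on simulated data.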

Additional observations from a re-analysis of the deposited data

Results flagged for a closer look

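The histone values here were picked out because the change from day 0 to day 6 differed between the lines in the limma test of the difference itself. The count of histone rows past the threshold was 21, all with the lower change in OCI-Ly7. The widest differences, OCI-Ly7 minus TMD8 on the log2 scale, were -2.05 for HIST1H4C, -2.01 for HIST1H4D, -1.96 for HIST1H1B and -1.74 for HIST1H3C. The rule was applied to histone rows only, so it could not pick the RNAs without a poly(A) tail. The median change of these RNAs was 0.11 in OCI-Ly7 and 1.55 in TMD8, and these medians were not tested between the lines. The part of these RNAs in the histone difference was not tested.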

How the results depend on the processing

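In TMD8 the day 3 count of 51 rows became 32 without the filter, 14 with an equal sum without ribosomal, small RNA and histone rows, 2 with median-ratio scaling and 0 with the replicate block, and 0 to 53 without 1 library. Every one of these counts was of higher rows. The day 6 count of 57 was 48 to 58 under the settings that kept all libraries and 37 to 57 without 1 library. From day 3 to day 6, the count of 3 became 0 with the replicate block and 0 to 2 without 1 library. In OCI-Ly7 the day 6 count of 3 became 0 without the filter, 6 with median-ratio scaling, 5 with the equal sum and 0 to 2 without 1 library; from day 3 to day 6 the count of 0 became 2 with the equal sum. For the difference between the lines the count was 4 to 23 at day 6 and 0 to 1 at day 3 without 1 library. The cause of these moves was not tested. With median-ratio scaling, mean summed FPKM at day 6 was 811 for H2B in OCI-Ly7, and 237 for H1 and 311 for H2B in TMD8.

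Of the named histone rows called at day 6, 0 of 3 in OCI-Ly7 and 23 of 30 in TMD8 passed under every alternative, and no direction among them turned. PRMT5 in TMD8 turned to 0.10 with median-ratio scaling. Over the genes tested, correlations of replicate differences between days were -0.15 to 0.13. With 2 libraries per day, they cannot show whether samples of the same number shared a culture or batch. With a mean of at least 5 FPKM, 51 rows were left in OCI-Ly7 and 45 in TMD8. The lower relative depth of the later TMD8 libraries limits low rows there.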

Other observations

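HIST1H3E was the lowest H3 row reported in OCI-Ly7 and was below the threshold in TMD8. It stood at 1.84 and 0.949 FPKM at day 0, 1.95 and 0.757 FPKM at day 3 and 1.01 and 0.961 FPKM at day 6 in OCI-Ly7, and at 0.585 and 0.589, then 0.156 and 0.833, then 0.559 and 1.26 in TMD8. The groups overlapped in both lines. It was not tested in TMD8, where it averaged 0.664 FPKM, and changed by -0.25 in OCI-Ly7 at day 6 (limma adjusted p = 0.592).

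H1FX, a replication-independent linker histone gene, moved apart from the H1 rows of the family in TMD8 only. It stood at 119 and 111 FPKM at day 0, 103 and 82.2 FPKM at day 3 and 265 and 135 FPKM at day 6 in OCI-Ly7, and at 32.7 and 36.2, then 27.7 and 26.1, then 23.5 and 15.5 in TMD8. Its day 6 change was 0.72 in OCI-Ly7 (limma adjusted p = 0.171), where the 2 day 6 libraries lay far apart, and -0.82 in TMD8 (limma adjusted p = 0.0119). The H1 rows changed by -0.111 to 0.742 in OCI-Ly7, a range that holds the H1FX value, and by 0.427 to 2.1 in TMD8.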
